A study of Homo sapiens with 28 samples.

Results

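The transcripts of 10 DNA end joining genes were followed: PRKDC, XRCC6, XRCC5, DCLRE1C, POLL, POLM, TDP1, XRCC4, NHEJ1 and LIG4. They were taken as a list of the non-homologous end joining machinery, and all 10 were among the 18417 genes measured, each by 1 probeset (a set of array probes for 1 gene). The cells were HEK293, an established human embryonic kidney line. They carried lentiviral short hairpin RNAs (shRNAs, also called hairpins) driven by the U6 promoter and were kept under puromycin at 2 µg per ml for 6 days, control cells included. Control hairpins were aimed at lacZ, a bacterial gene absent from human cells. RNA was hybridised to Human Gene ST1.0 arrays, 28 in all, which came as 2 sets of 14, called series here. The first of these held 3 hairpins each against CLP1, DDX5, DDX17 and HNRNPL, 1 hairpin against CPSF6 and 1 lacZ array. The second held 3 hairpins each against PABPC1, PARP1, PRKDC and SUPT16H and 2 lacZ arrays.

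Non-homologous end joining is the route by which human cells rejoin most broken DNA ends outside of replication. A ring of the Ku70 and Ku80 proteins, made from XRCC6 and XRCC5, slides onto each end and recruits the kinase DNA-PKcs, made from PRKDC, to form DNA-PK. The nuclease Artemis (DCLRE1C), the gap-filling polymerases POLL and POLM and the phosphodiesterase TDP1 trim or fill the ends, and LIG4 seals them, held by its partner XRCC4 and the related factor XLF (NHEJ1). The same steps complete V(D)J recombination, by which lymphocytes assemble antigen receptor genes. The study knocked PRKDC down as an accessory part of the complex that forms transcript ends, in cells that do not express AIRE. PRKDC had been reported to influence genes controlled by Aire, a regulator of self-antigens in the thymus. The study reported no effect of PRKDC on the shortening of transcript ends. The same arrays show the levels of the other end joining transcripts when PRKDC is low.

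Levels are log2 probeset intensities and differences are log2 units. Of the cell markers, NEFL and INA, neurofilament genes that HEK293 cells express, lay at or above the 92.7th percentile of all genes in the lacZ arrays, while NEFM and PAX2 lay between the 41.7th and the 50.5th. The leukocyte gene PTPRC and the fibroblast gene DCN lay at or below the 2.28th, and the collagen gene COL1A1 at the 62.9th to 64.0th. Probes differ in brightness, so these percentiles are a rough check. The series were normalized apart, with a median intensity of 61.5 to 74.0 per array in the first and 54.5 to 58.3 in the second, so no level was set across them. The lacZ array of the first series and lacZ replicate 2 of the second lay 0.32 apart on average, and that gap had an SD of only 0.07 across probesets, whereas between lacZ replicates 2 and 3 the SD was 0.28 and between hairpins of 1 gene 0.20 to 0.77. These are taken as 1 array normalized in both series, so the first series rests on 1 control array and the second on 2. The labels do not tie the lacZ arrays to cultures grown apart, so the spread between them may be technical in part. The p-values rest on the spread within groups over all arrays, which comes almost wholly from hairpins of the same gene. The lacZ arrays add little to it, and the single lacZ array of the first series adds none. Hairpins of a gene are different sequences. In bulk RNA, fewer cells of a kind and less RNA per cell cannot be told apart.

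The interquartile range of all probesets on an array, a measure of how far its values are spread, also differed between groups. It was 2.83 and 2.84 in the second series lacZ arrays, 2.63 to 2.65 with PABPC1 hairpins, 2.66 to 2.77 with PARP1 hairpins, 2.58 to 2.65 with SUPT16H hairpins and 2.50 to 2.55 with PRKDC hairpins. In the first series it was 2.45 for DDX5 hairpin 3 and 2.71 to 3.08 for the other 13 arrays.

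PRKDC itself was far lower in its own knockdown, which checks the label and is no finding, since the study kept hairpins that worked. The 3 PRKDC hairpins gave levels of 7.24, 7.37 and 7.08. The 2 lacZ arrays of that series read 9.66 and 9.32, and the 9 hairpin arrays of the other 3 knockdowns read 8.98 to 9.47. The PRKDC hairpin arrays did not overlap with any other array, and their levels were 21.1%, 23.0% and 18.8% of the lacZ mean. The fitted difference was -2.26 ± 0.23 (SE) against lacZ (limma, adjusted p = 1.26e-06) and -1.94 ± 0.17 against the other knockdowns (adjusted p = 4.05e-07).

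Outside its own knockdown no group mean of PRKDC was called different from lacZ. Its mean ± SD over 3 hairpins was 9.17 ± 0.10 with PABPC1 hairpins, 9.28 ± 0.16 with PARP1 hairpins and 9.05 ± 0.12 with SUPT16H hairpins, against 9.49 ± 0.24 (n = 2) in lacZ. In the first series the means were 9.90 ± 0.03 for CLP1, 9.87 ± 0.30 for HNRNPL, 9.78 ± 0.28 for DDX17 and 9.59 ± 0.56 for DDX5, with 10.07 in the single lacZ array and 10.12 in the single CPSF6 array. In the first series neighbours in this order differed by less than the SD within knockdowns of 0.35. In the second, PARP1, PABPC1 and SUPT16H knockdown lay within the corresponding SD of 0.13 of their neighbours, and the step from lacZ to PARP1 knockdown was wider at -0.21 ± 0.23 (adjusted p = 0.678). The test among the other 3 knockdowns of the second series gave an adjusted p of 0.813. Set against the other knockdowns, PRKDC came out higher in PARP1 knockdown by 0.80 ± 0.17 (adjusted p = 0.0386), where 0.554% of all genes were called. The mean of those others includes the PRKDC hairpins. Without the PRKDC hairpins the difference was 0.17 (adjusted p = 0.769).

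**Figure D1:**
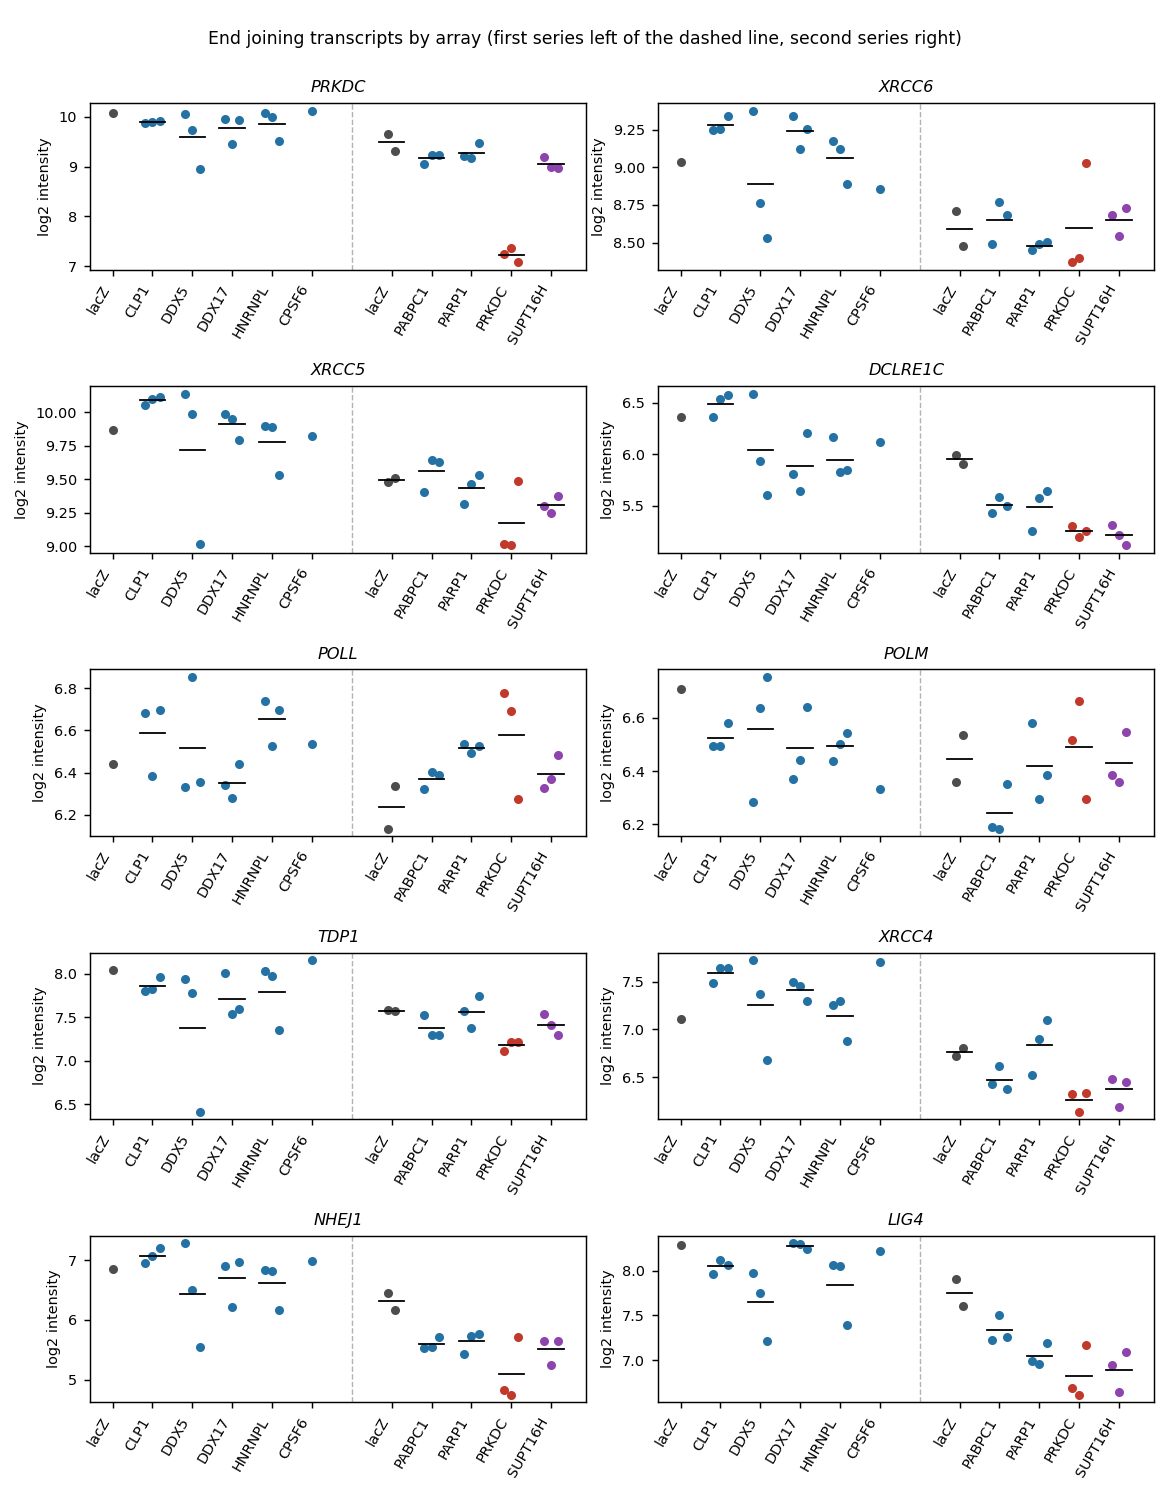
Log2 intensity of the 10 end joining transcripts on each of the 28 arrays, with a point per array, a line at the mean of a group and lacZ in grey. PRKDC hairpins (red) read 7.08 to 7.37 for PRKDC and all other second series arrays at least 8.98, and DDX5 hairpin 3 gives the lowest first series level of 8 of the 10 transcripts.

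Among the other 9 end joining genes, 3 were lower in PRKDC knockdown than in lacZ and none was higher. The 3 were NHEJ1, LIG4 and DCLRE1C. With PRKDC itself, 4 of 10 were called (adjusted p under 0.05), beside 35.7% of all genes in this comparison, 3612 higher and 2962 lower. The median difference of the 9 was -0.39, and that of all genes was 0.10. Per hairpin the median of the 9 was -0.46, -0.48 and -0.35.

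NHEJ1, which encodes XLF, read 6.45 and 6.17 in lacZ and 4.83, 4.74 and 5.71 with PRKDC hairpins 1, 2 and 3. All 3 lay below both lacZ arrays, but hairpin 3 lay about as high as the other knockdowns. The difference was -1.22 ± 0.33 (adjusted p = 0.0107).

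LIG4, the ligase of the pathway, read 7.91 and 7.60 in lacZ and 6.69, 6.61 and 7.17 with PRKDC hairpins. The same hairpin was again the highest of the 3. LIG4 differed from lacZ by -0.93 ± 0.22 (adjusted p = 0.00453).

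DCLRE1C, which encodes Artemis, read 5.99 and 5.91 in lacZ and 5.30, 5.20 and 5.26 with PRKDC hairpins. Here the 3 hairpins lay close together. The difference was -0.70 ± 0.20 (adjusted p = 0.0131).

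The remaining members were not called in PRKDC knockdown. For the Ku genes the hairpins did not act alike. XRCC6 read 8.37, 8.40 and 9.03 with PRKDC hairpins and 8.71 and 8.48 in lacZ, so that hairpins 1 and 2 lay below both controls and hairpin 3 above them. XRCC5 read 9.02, 9.01 and 9.49, and lacZ 9.48 and 9.51. The differences were 0.01 (95% interval -0.42 to 0.43) for XRCC6 and -0.32 (-0.79 to 0.14) for XRCC5. XRCC6 has no settled sign: its difference was below 0 with median centring, without PRKDC hairpin 3 and without lacZ replicate 3.

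XRCC4, the scaffold of LIG4, read 6.32, 6.14 and 6.34 with PRKDC hairpins and 6.72 and 6.81 in lacZ. The groups did not overlap, and the difference of -0.50 ± 0.21 missed the threshold (adjusted p = 0.0676). It passed under 4 of 36 alternatives. TDP1, which removes trapped topoisomerase from DNA ends, read 7.11, 7.22 and 7.22 against 7.58 and 7.57, a difference of -0.39 ± 0.28 (adjusted p = 0.26).

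Neither polymerase lay lower. POLL read 6.78, 6.69 and 6.27 with PRKDC hairpins and 6.13 and 6.34 in lacZ, a difference of 0.34 ± 0.16 (adjusted p = 0.0952). Hairpin 3 lay between the controls, only 0.04 above their mean. POLM read 6.52, 6.66 and 6.29 against 6.36 and 6.54, a difference of 0.04 ± 0.15 (adjusted p = 0.826).

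The same members were also low in the knockdowns that did not target PRKDC. NHEJ1, LIG4 and DCLRE1C lay below both lacZ arrays on all 12 knockdown arrays of the second series, and they were the only 3 of the 10 to do so, beside 12.4% of all genes (2290). NHEJ1 read 5.53, 5.55 and 5.71 with PABPC1 hairpins, 5.43, 5.73 and 5.76 with PARP1 hairpins and 5.64, 5.24 and 5.65 with SUPT16H hairpins. LIG4 read 7.22, 7.51 and 7.26, then 6.99, 6.96 and 7.20, then 6.94, 6.64 and 7.09 in the same order. DCLRE1C read 5.43, 5.58 and 5.50, then 5.25, 5.58 and 5.64, then 5.31, 5.21 and 5.11. For DCLRE1C the SUPT16H hairpins were as low as the PRKDC hairpins.

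In SUPT16H knockdown, which lowers a subunit of the histone chaperone FACT, 2 of 10 members were called against lacZ, where 9.53% of all genes were. LIG4 was lower by a difference of -0.87 ± 0.22 (adjusted p = 0.016) and DCLRE1C by -0.74 ± 0.20 (adjusted p = 0.024). NHEJ1, at -0.80 ± 0.33, missed the threshold (adjusted p = 0.117).

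No member was called against lacZ in PABPC1 or PARP1 knockdown by limma, beside 5.76% and 5.44% of all genes. Each had 2 of 10 members at an unadjusted p under 0.05, DCLRE1C and NHEJ1 for PABPC1 and DCLRE1C and LIG4 for PARP1, beside 4614 and 3639 of 18417 genes, so the members' share is near that of all genes. PARP1 encodes the poly(ADP-ribose) polymerase that senses DNA breaks, and in its knockdown LIG4 came nearest, at -0.71 ± 0.22 (adjusted p = 0.057).

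Against the other knockdowns of the series, none of the 9 members besides PRKDC was called in PRKDC knockdown by limma, and none had an unadjusted p under 0.05, where 4517 of all 18417 genes did. Over all genes 16 were called, or 0.0869%. With each series fitted alone NHEJ1 passed the threshold (adjusted p = 0.0487), at the same difference. NHEJ1 differed by -0.49 (95% interval -0.99 to 0.01), XRCC4 by -0.30 (-0.62 to 0.03), LIG4 by -0.27 (-0.60 to 0.06) and DCLRE1C by -0.15 (-0.45 to 0.15). The median of the 9 was -0.26 and that of all genes 0.04.

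**Figure D2:**
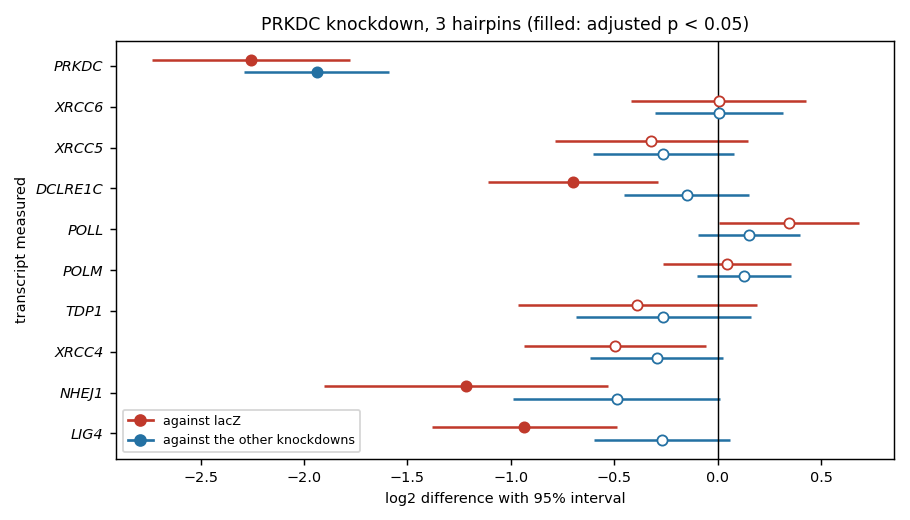
Log2 difference of each end joining transcript in PRKDC knockdown against the 2 lacZ arrays (red) and against the mean of the other 3 knockdowns of the series (blue), with 95% intervals from the linear model and filled points where the adjusted p is under 0.05. PRKDC is called on both scales, whereas NHEJ1, LIG4 and DCLRE1C are called only against lacZ.

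The comparisons with lacZ lean on its replicate 2. Without that array the 3 differences in PRKDC knockdown were -1.08 for NHEJ1 (adjusted p = 0.114), -0.78 for LIG4 (adjusted p = 0.0925) and -0.65 for DCLRE1C (adjusted p = 0.112), and both calls in SUPT16H knockdown were lost too, at differences of -0.72 for LIG4 (adjusted p = 0.237) and -0.69 for DCLRE1C (adjusted p = 0.222). The differences kept most of their size with 1 control array fewer. Without lacZ replicate 3, DCLRE1C was lost in PRKDC (adjusted p = 0.0529) and SUPT16H knockdown (adjusted p = 0.0938). LIG4 and DCLRE1C in SUPT16H knockdown also needed SUPT16H hairpin 2 (without it, adjusted p = 0.0757 and 0.0664), and DCLRE1C needed SUPT16H hairpin 3 (adjusted p = 0.0672 without it).

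The levels of these members also ran in part beside the spread of the arrays. In the second series the 2 lacZ arrays had the widest spread and the highest NHEJ1, LIG4 and DCLRE1C, and PRKDC hairpins 1 and 2 had the narrowest spread and the lowest NHEJ1. PRKDC hairpin 3 was the next narrowest at 2.55, but read 5.71 for NHEJ1 and 7.17 for LIG4, above the wider SUPT16H arrays for both. The lowest DCLRE1C (5.11) lay on SUPT16H hairpin 3, at a spread of 2.58. In the first series DDX5 hairpin 3 had both the narrowest spread (2.45) and the lowest NHEJ1 (5.54), LIG4 (7.22), DCLRE1C (5.60) and TDP1 (6.41), while the widest spread, CLP1 hairpin 3 at 3.08, went with an NHEJ1 level of 7.20. With the spread as a covariate, chosen after seeing the data, the differences in PRKDC knockdown were -0.31 for NHEJ1 (adjusted p = 0.489), -0.49 for LIG4 (adjusted p = 0.156) and -0.24 for DCLRE1C (adjusted p = 0.449), and PRKDC itself stayed called at -1.68. In that fit XRCC5, TDP1 and XRCC4 turned to 0.21, 0.39 and 0.024, and the 2 member calls against lacZ were PRKDC in its own knockdown and LIG4 in PARP1 knockdown. The adjustment was estimated from differences between arrays of the same group. The spread varied most among DDX5 hairpins (2.45 to 3.03), and little among PRKDC hairpins (2.50 to 2.55) or the second series lacZ arrays (2.83 and 2.84). The gap in spread between lacZ and PRKDC knockdown thus lies outside that within either group, and this fit cannot part it from the group. The part of the array spread in these differences was not tested beyond this fit.

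**Figure D3:**
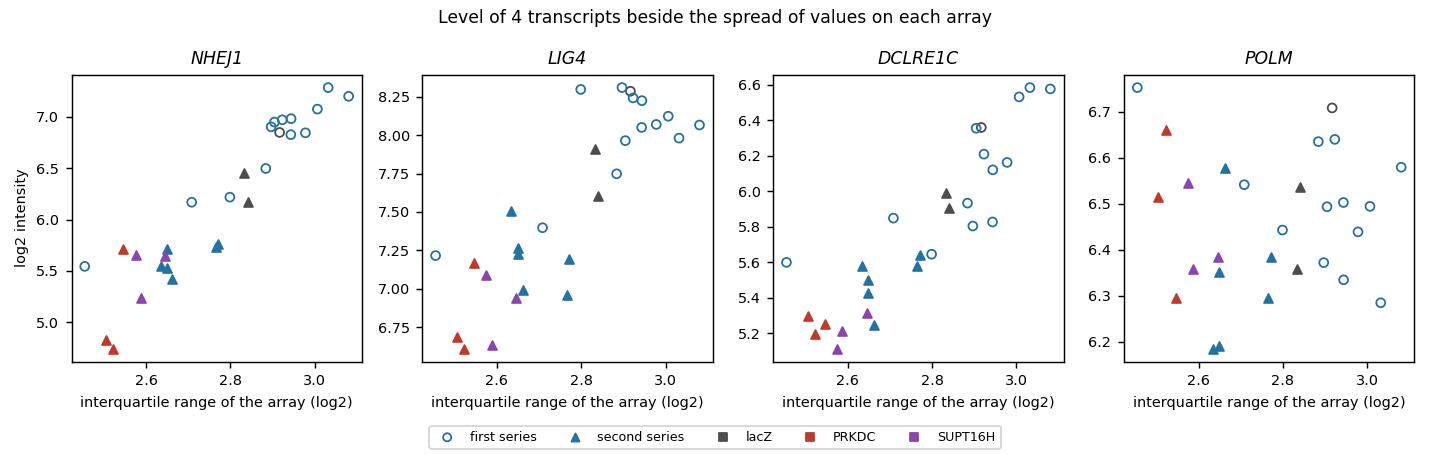
Log2 intensity of NHEJ1, LIG4, DCLRE1C and POLM, picked after their values were seen, against the interquartile range of all log2 intensities on the same array, with a point per array, open circles for the first series, triangles for the second and lacZ in grey. In the second series NHEJ1 is lowest on the narrow arrays of PRKDC hairpins 1 and 2 (4.83 and 4.74) and highest in lacZ (6.17 and 6.45), and in the first it is lowest on the narrow array of DDX5 hairpin 3 (5.54). PRKDC hairpin 3, the next narrowest of the second series, reads 5.71 for NHEJ1.

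In the first series no member was called against lacZ by limma in any of the 4 knockdowns, beside 0.956% of all genes for CLP1, 0.842% for DDX5, 2.77% for DDX17 and 1.84% for HNRNPL. At an unadjusted p under 0.05 there was 1, LIG4 in DDX5 knockdown (-0.64 ± 0.28, adjusted p = 0.362), where 2096 of all genes were. PRKDC and TDP1 lay below the single lacZ array on all 12 knockdown arrays, beside 11.2% of all genes (2063). The highest of those 12 was 10.07 for PRKDC and 8.03 for TDP1, near the lacZ values of 10.07 and 8.04.

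Against the other knockdowns of the first series no member was called either, beside 0.722% of genes for CLP1, 0.038% for DDX5, 0.874% for DDX17 and 0.0977% for HNRNPL. At an unadjusted p under 0.05 there were 2, 1, 1 and 0 members, beside 3186, 1695, 2163 and 1571 of all 18417 genes, so these counts are not set apart from the rest. CLP1 encodes an RNA kinase of the complex that cuts transcripts at their poly(A) site. Its 3 hairpins gave a mean above that of the other 3 knockdowns for every member, where 9388 of all 18417 genes lay higher. For POLM the difference was 0.01, and only 1 of the 3 hairpins lay above. The mean of the others includes DDX5 hairpin 3, which gave the lowest first series level of most members. The nearest to a call in CLP1 knockdown was DCLRE1C, at 0.53 ± 0.15 (adjusted p = 0.0848). DCLRE1C read 6.36, 6.53 and 6.58 with CLP1 hairpins and 6.36 in lacZ, and the DDX17 hairpins gave 5.81, 5.65 and 6.21.

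DDX5 hairpin 3 set much of the spread in the first series. DDX5, an RNA helicase, had the highest and the lowest NHEJ1 level of the 14 arrays, 7.28 with hairpin 1 and 5.54 with hairpin 3, a range of 1.74. The within-knockdown SD was 0.52 for NHEJ1 and 0.48 for TDP1, against 0.31 and 0.13 in the second series. Without DDX5 hairpin 3, 9 pairs of member and knockdown were called against lacZ in place of 6, and 4 against the other knockdowns in place of 2. Calls over all genes against lacZ then rose as well, to 20173. The count over all genes against the other knockdowns is not given for that setting, so the 4 are not set apart from the rest. Without DDX5 hairpin 1, which leaves hairpins 2 and 3, 9 were called against the other knockdowns, 4 of them in DDX5 knockdown (XRCC6, TDP1, NHEJ1 and LIG4). Over all genes, calls against the other knockdowns rose to 6119 in that setting, so the members did not rise alone.

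The other comparisons with the remaining knockdowns in the second series gave no further call, beside 0.0869% of genes for PABPC1 and 0.0109% for SUPT16H. At an unadjusted p under 0.05 there were 2 members for PABPC1 (PRKDC and LIG4) and 1 for SUPT16H (PRKDC), beside 1896 and 1654 of all genes, and PRKDC is again read against a mean that holds its own hairpins. XRCC4 was the highest in PARP1 knockdown, at 6.52, 6.89 and 7.09, and differed from the others by 0.46 ± 0.16 (adjusted p = 0.144).

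**Figure D4:**
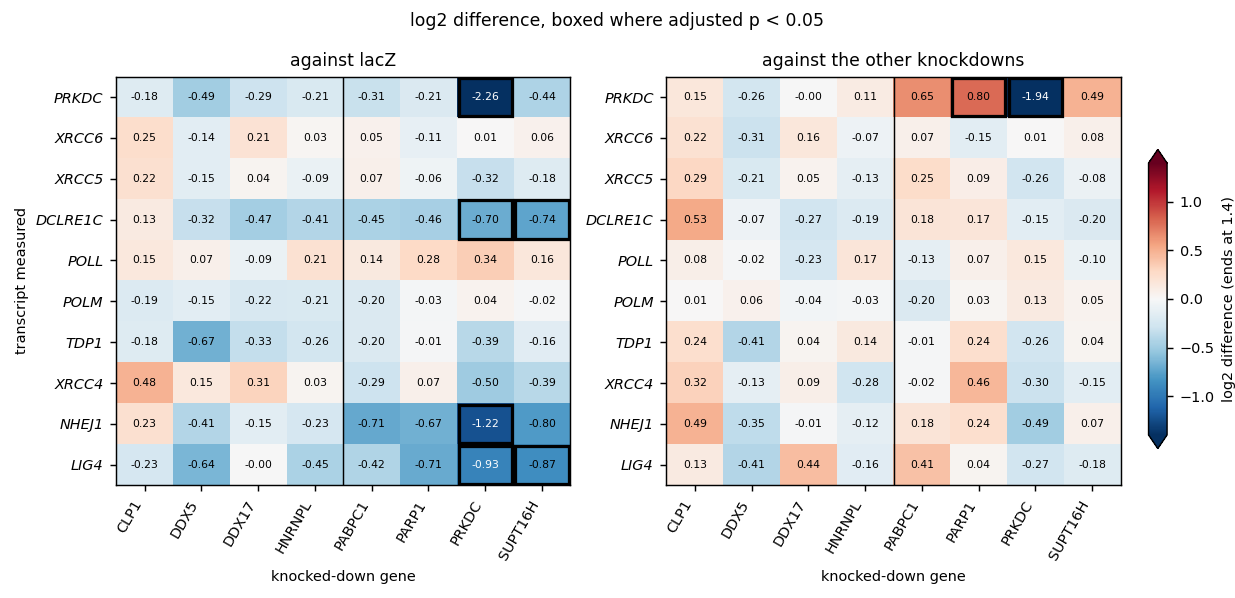
Log2 difference of the 10 transcripts (rows) in the 8 knockdowns with 3 hairpins (columns, first series left of the line), against the lacZ arrays of the series (left) and against the mean of the other 3 knockdowns (right), boxed where the adjusted p is under 0.05. Against lacZ 6 of 80 cells are boxed, all in PRKDC or SUPT16H knockdown, and against the other knockdowns 2 of 80, both for PRKDC.

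A moderated F test asked whether a member differed among the knockdowns of a series at all. In the second series PRKDC was the only 1 of 10 called (adjusted p = 2.71e-06), beside 0.939% of all genes. None was called once PRKDC hairpins were left out, beside 0.418% of all genes, or among the first series knockdowns, beside 1.11%. Nearest to a call among the first series knockdowns were DCLRE1C (adjusted p = 0.199) and LIG4 (adjusted p = 0.255).

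The CPSF6 hairpin, against a subunit of cleavage factor I, has 1 array and no test. On it XRCC4 read 7.71 and lacZ 7.11, the largest difference of the 10 members at 0.60. DDX5 hairpin 1 reached 7.72. POLM was lower than in lacZ by a difference of -0.37, and the other 8 members differed by -0.24 to 0.13. PRKDC (10.12) and TDP1 (8.15) stood above all 12 knockdown arrays of the series. How many of all genes did so on this array was not counted, so these members are not set apart from the rest.

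The genes whose levels ran most like PRKDC over 24 arrays, leaving out its hairpins and the second copy of the shared lacZ array, were SMC1A, USP34 and BRIP1. SMC1A is a cohesin subunit, USP34 a deubiquitinase and BRIP1 a helicase that binds BRCA1. Pearson's r of levels centred within series was 0.95, 0.94 and 0.91, and Spearman's rho 0.91, 0.94 and 0.84. Of the members, TDP1 (r = 0.91, the 7th highest of all genes) and NHEJ1 (r = 0.87) ran closest to PRKDC, XRCC6 reached 0.52 and POLM -0.33. The 5th and 95th percentiles of all genes were -0.76 and 0.76. The points include 3 hairpins of each gene and differ in the spread described above, and r fell to 0.80 for TDP1 and 0.76 for NHEJ1 without DDX5 hairpin 3, and from 0.52 to 0.15 for XRCC6.

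Further lists give the setting of the 10. Of 13 accessory end joining factors, 2 rose and 2 fell in PRKDC knockdown against lacZ, with a median difference of -0.22. These 4 of 13, and the counts of the next lists, stand beside 35.7% of all genes called in this comparison, and none of these shares is far from it. PAXX, a paralogue of XRCC4 and XLF that binds Ku, rose by 0.67 ± 0.15 (adjusted p = 0.00409), and MAD2L2, a shieldin subunit that limits resection, by 0.50 ± 0.16 (adjusted p = 0.0214). RIF1, which acts with 53BP1 to shield ends, fell by 0.81 ± 0.25 (adjusted p = 0.0184), and APLF, a scaffold for Ku and XRCC4, by 0.78 ± 0.23 (adjusted p = 0.0164).

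Of 16 genes of alternative end joining and end resection, 1 rose and 4 fell, with a median of -0.35. The helicase BLM, which unwinds resected ends, fell by 1.32 ± 0.30 (adjusted p = 0.00388). RAD50 and MRE11, which open the ends as parts of the MRN complex, fell by 0.85 ± 0.23 (adjusted p = 0.00973) and 0.83 ± 0.24 (adjusted p = 0.0133). The nuclease EXO1 fell by 0.84 ± 0.25 (adjusted p = 0.0161), and the ligase LIG1 rose by 0.61 ± 0.19 (adjusted p = 0.0182).

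Of 11 kinases related to PRKDC and the chaperones that fold them, 1 rose and 3 fell, with a median of -0.28. ATM, the kinase that signals DNA breaks, fell by 1.30 ± 0.28 (adjusted p = 0.00303). SMG1, of nonsense-mediated decay, fell by 1.02 ± 0.27 (adjusted p = 0.00973), and MTOR, the growth kinase, by 0.94 ± 0.24 (adjusted p = 0.00693). TELO2, the cochaperone that stabilises these kinases, DNA-PKcs included, rose by 0.90 ± 0.19 (adjusted p = 0.0028).

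None of these 40 genes was called in PRKDC knockdown against the other knockdowns, where 0.0869% of all genes were. NBN, the third gene of the MRN complex, came nearest (adjusted p = 0.103), and ATM differed by -0.68 ± 0.21 (adjusted p = 0.121). Without lacZ replicate 2, and likewise with the array spread as a covariate, none of the 13 calls against lacZ in these lists held. On all 12 knockdown arrays of the second series 10 of the 40 lay below both lacZ arrays, ATM and BLM among them, and 3 above, which were PAXX, TELO2 and LIG1. Over all genes 2290 lay below and 2331 above. In PABPC1 knockdown against lacZ, 2 alternative end joining genes were lower, BLM among them (adjusted p = 0.0458), and 1 of the kinase list was higher. PARP1 knockdown had 2 accessory genes higher and 2 genes lower in the alternative list, which holds PARP1. SUPT16H knockdown had 1 accessory gene higher, 1 alternative gene lower and 2 of the kinase list lower, ATM among them (adjusted p = 0.044). These stand beside 5.76%, 5.44% and 9.53% of all genes.

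Genes beside PRKDC were read as a check on its locus. MCM4, a replication helicase subunit whose gene starts next to PRKDC, read 8.83, 9.01 and 8.88 with PRKDC hairpins and 9.20 and 9.37 in lacZ. It differed by -0.38 ± 0.21 from lacZ (adjusted p = 0.151) and by -0.21 ± 0.16 from the other knockdowns (adjusted p = 0.383). UBE2V2, a ubiquitin-conjugating variant that lies near it, read 7.02, 7.19 and 7.16 against 7.80 and 7.79. It fell by 0.67 ± 0.14 against lacZ (adjusted p = 0.00212) and differed by -0.34 ± 0.10 from the other knockdowns (adjusted p = 0.119). UBE2V2 lay below both lacZ arrays on all 12 knockdown arrays of the second series, as did 12.4% of all genes. SPIDR and CEBPD, the others of 4, were not called, so 1 of 4 was called against lacZ, beside 35.7% of all genes.

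The lymphocyte genes of V(D)J recombination stayed dim. RAG1, RAG2 and DNTT had mean levels of 3.76 to 3.82 in the second series lacZ arrays and 3.96 to 4.05 with PRKDC hairpins, and RAG2, which lay at or below the 1.25th percentile in lacZ, differed by 0.24 ± 0.08 (adjusted p = 0.0274), a call lost under 8 of 35 alternatives, among them each lacZ array left out, PRKDC hairpin 1 or 3 left out and quantile normalization over all arrays (0.09, adjusted p = 0.309). Of the cell markers, 3 of 5 HEK293-type genes were lower in PRKDC knockdown than in lacZ (NEFL, INA and LIN28B), beside the 35.7% of all genes, and of 8 blood, fibroblast and keratinocyte genes KRT14 alone was called, higher by 0.55 ± 0.18 (adjusted p = 0.0272). The mean log2 level of the HEK293-type list was 8.04 to 8.15 in the second series lacZ arrays, 6.90 to 7.35 with PRKDC hairpins and 7.23 to 7.46 with the other hairpins. Their part in the differences of the end joining genes was not tested.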

How the data were processed

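Values were the deposited linear intensities of 33252 probesets, to which the authors had brought the array scans with RMA, which corrects background, matches array distributions and summarises probes. The authors chose hairpins by their knockdown. Probesets with 1 gene symbol (19460) were kept, the brightest per gene (18417 genes), and log2 was taken with no pseudocount or filter. Scans were not used here.

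One linear model (limma 3.58.1 in R 4.3.3, variance trend on the mean level, with 8.0 prior and 17 residual degrees of freedom) with a mean per knocked-down gene and series was fitted over all 28 arrays. Each knockdown was set against lacZ and against the mean of the other 3 knockdowns of its series, with Benjamini-Hochberg adjustment over all genes and calls under 0.05. Tests are two-sided, apart from the F tests. The fit was also run on simulated data with independent noise, of the same size in every group for a gene. Those data held no differing array spread, outlying hairpin or shared lacZ array, so that run does not test the fit against these. The comparisons with lacZ share control arrays.

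Named genes were all members, MCM4, up to 4 genes per further list called in PRKDC knockdown, and the 3 genes most like PRKDC. The cell markers named, NBN, LIG1 and members named by unadjusted p were added after their values were seen. Members and lists were chosen with earlier results of these data known, so no count over a list is independent support. Hairpin numbers name different sequences and pair no arrays. The number of arrays limits the precision. Figures used Python 3.11.15 and matplotlib 3.10.9.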

Additional observations from a re-analysis of the deposited data

How the results depend on the processing

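Under 36 alternatives PRKDC stayed called in its own knockdown against lacZ, from -2.43 to -1.68. Of 22 other calls of members, pathway lists, RAG2 and UBE2V2, 19 were lost without lacZ replicate 2 and 19 with the array spread as a covariate. The calls of cell markers, and those of the further lists in PABPC1, PARP1 and SUPT16H knockdown, were not run under the alternatives. Fitting each series alone gave 13 member calls against lacZ in place of 6, 5 against the other knockdowns in place of 2, and 2 among the knockdowns in place of 1, with 19108 and 4671 calls over all genes in place of 11572 and 455. With the array spread as a covariate, member calls were 2 and 5, the calls over all genes against the other knockdowns 2440, and the median of the 9 members in PRKDC knockdown turned to 0.024. That median was -0.19 after quantile normalization over all arrays and -0.21 with both lacZ arrays behind every knockdown. These settings gave 916 and 908 calls against the other knockdowns, and the filter on dim genes 294. Median centring left 1 member call against the other knockdowns. For that setting, and for the covariate fit against lacZ, no count over all genes is given, so these member counts are not set apart from the rest. The cause was not tested.

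Leaving out 1 array at a time, member calls ran from 1 (without lacZ replicate 2) to 9 (without DDX5 replicate 1 or 3) against lacZ, from 1 to 9 against the other knockdowns and from 1 to 4 among the knockdowns. Calls over all genes ran from 2045 to 20173 and from 207 to 6119, and the median of the 9 from -0.48 to -0.35. The call of PRKDC in PARP1 knockdown against the other knockdowns had adjusted p-values of 0.00238 to 0.769 over the alternatives and was lost without CLP1 replicate 1 or 2, PABPC1 replicate 2 or 3, any PARP1 replicate, PRKDC replicate 3 or SUPT16H replicate 2 or 3. RIF1 and MAD2L2 were lost without PRKDC replicate 3 and APLF without lacZ replicate 3. Calls in PRKDC knockdown against lacZ were also gained. XRCC4 was called with each series alone, with both lacZ arrays behind every knockdown and without DDX5 replicate 1 or 3 (lowest adjusted p = 0.0164). POLL was called with both lacZ arrays or without PRKDC replicate 3 (0.0303), and TDP1 with each series alone (0.0306). Calls over all genes also rose with each series alone and without DDX5 replicate 3.

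Some signs turned. In PRKDC knockdown against lacZ, XRCC6 gave -0.0017 with median centring and -0.21 to 0.12 over single arrays left out, and POLM -0.045 to 0.14. Against the other knockdowns XRCC6 gave -0.0048 with median centring and -0.21 to 0.12 over single arrays. With the array spread as a covariate XRCC5 gave 0.21, POLM -0.13, TDP1 0.39, XRCC4 0.024 and MCM4 0.16 against lacZ, and DCLRE1C 0.0498, TDP1 0.0749 and MCM4 0.0288 against the other knockdowns.

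Hairpin numbers name different sequences, so no arrays were paired by them. Over knockdowns, deviations of arrays with the same number correlated from -0.58 to 0.83, and 1, 1 and 5 of 8 knockdowns correlated best with their own number for numbers 1, 2 and 3. What the arrays numbered 3 may share was not tested. A replicate block for the number gave 6 and 2 member calls, as without it, and 11707 and 488 calls over all genes. The single lacZ array of the first series could not be left out.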
